A study of Mus musculus with 2 samples.

Results

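The cytosolic ribosomal protein genes encode the protein part of the ribosome that translates nuclear messages. A gene belonged to this set when GENCODE lists it as protein-coding and its symbol is Rpsa or has the form Rpl, Rps or Rplp followed by a digit, with the Rps6k kinases left out. Of 43346 mouse genes in the deposited tables, 92 met the rule. The core of the set were 77 genes, 46 for proteins of the 60S (large) subunit and 31 for proteins of the 40S (small) subunit. A further 8 were paralogues of core genes, 6 had symbols of pseudogene form although the annotation lists them as protein-coding, and 1 was Rps19bp1, which encodes a binding partner of Rps19 and no part of the ribosome. Fau, which encodes a 40S protein fused to a ubiquitin-like protein, falls outside the symbol rule and is given beside the set.

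The samples were adrenal glands of adult mice, 8 weeks old, of the inbred strain C57BL/6J, taken from littermates of mixed sex and given no treatment that the labels name. There was 1 group of 2 libraries, labelled biological replicates, whose sex is recorded as not collected. The labels name a separate tissue sample for each library under a shared donor entry and do not say how many animals were pooled. The p-values cover counting error only and measure no spread between animals or libraries. Stranded, paired reads of 76 nt were made from poly(A) RNA longer than 200 nt after depletion of ribosomal RNA, with ERCC spike-in RNAs added. The mouse genes held 47615328 expected counts in replicate 1 and 52890686 in replicate 2. With 1 group there is no comparison of conditions, so the results are the levels of the genes and how far the libraries differed.

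A ribosome holds each core protein in fixed proportion to the ribosomal RNA, with the acidic stalk proteins as the best known exception, so cells need the products of the core genes in balanced amounts. In mammals most of these genes carry a terminal oligopyrimidine tract, a run of C and T bases at the very start of the message, through which the mTOR kinase and the RNA-binding protein Larp1 control their translation. Each core gene has, as a rule, an active locus with introns, while the mouse genome holds many processed pseudogenes copied from the messages. Steroid-producing and chromaffin cells of the adrenal gland make large amounts of enzyme and granule protein and so depend on translation.

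All 77 core genes were detected at 1 TPM or more in both libraries, where TPM is a level per transcript length scaled to a fixed total per library. Their levels were far from equal. The highest core gene, Rplp1, stood 2475 times above the lowest, Rpl39, in replicate 1 and 3329.8 times above it in replicate 2, and the coefficient of variation over the 77 genes was 245% and 264%. The median core gene had 132 TPM in replicate 1 and 143 TPM in replicate 2, with quartiles of 41.5 and 646 TPM in replicate 1 and 44.9 and 644 TPM in replicate 2. In both libraries 11 core genes reached 1000 TPM, 43 reached 100 TPM and 4 remained under 10 TPM. Together the 92 genes held 4.25% of all TPM outside spike-ins in replicate 1 and 4.32% in replicate 2 (mean 4.28%, SD 0.0474, n = 2). They held a smaller share of the expected counts, 1.46% and 1.45%, since their transcripts are short. The exact 95% binomial intervals of these shares ran from 1.45% to 1.46% in replicate 1 and from 1.45% to 1.45% in replicate 2, and cover counting error only.

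**Figure D1:**
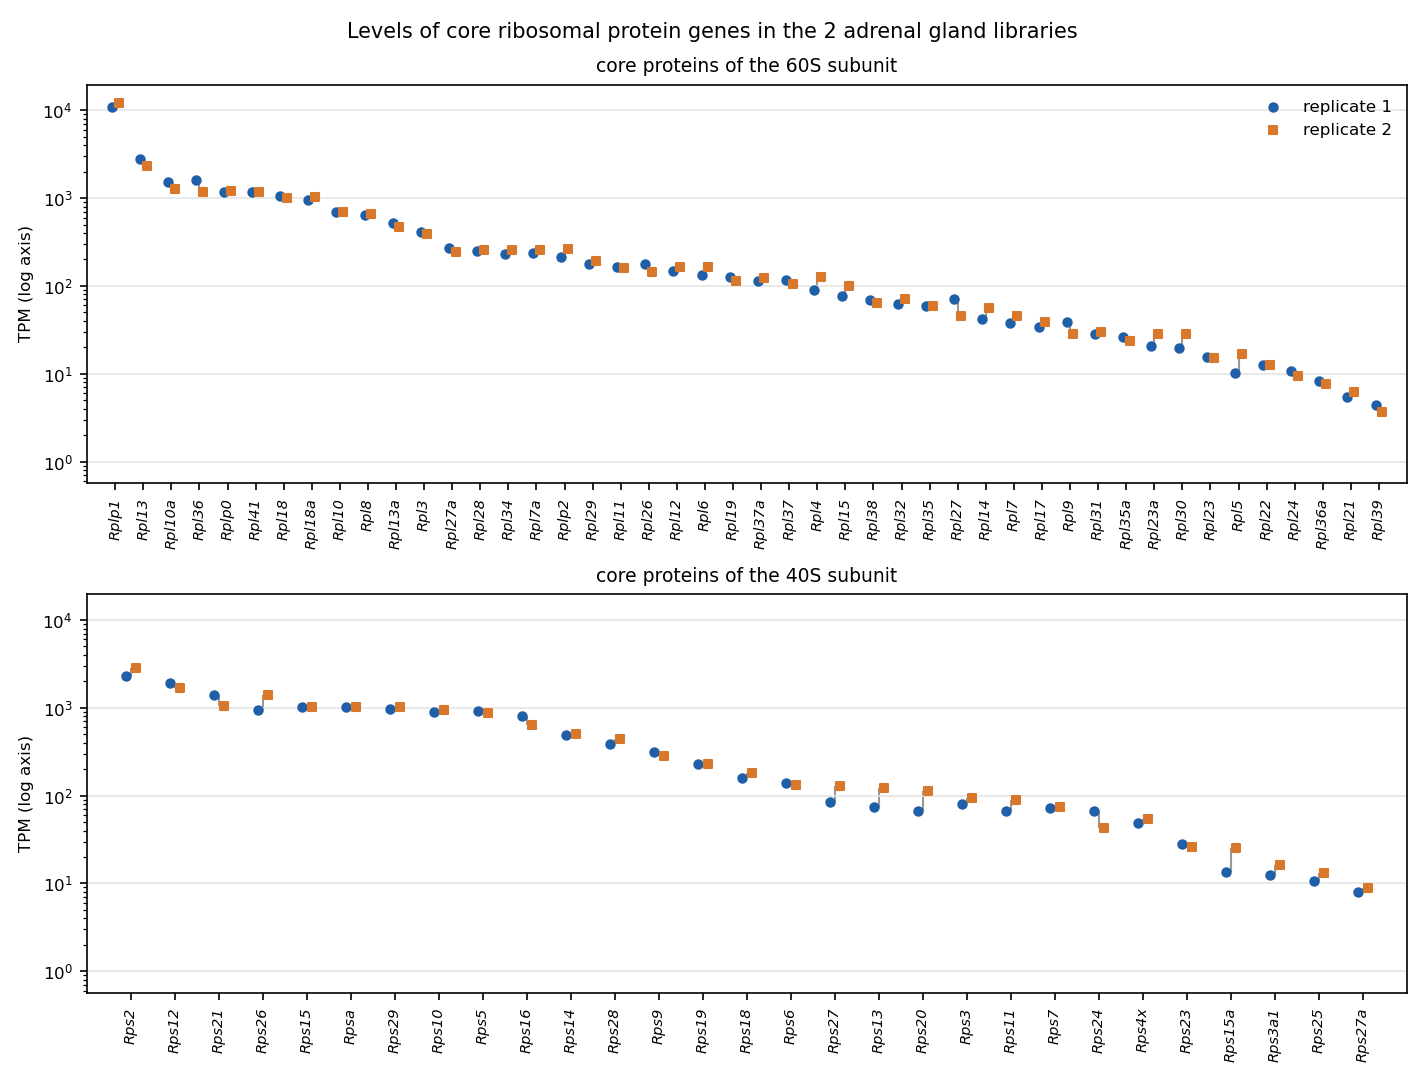
TPM on a log axis of core genes of the 60S subunit (upper panel) and the 40S subunit (lower panel), ordered by the mean of both libraries; circles are replicate 1, squares replicate 2, and a grey line joins them. Levels fall from 10888 and 12220.2 TPM for Rplp1 to 4.40 and 3.67 TPM for Rpl39 without a common plateau, and the libraries lie close together for most genes.

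The top of the order was taken by a gene of the P stalk, the flexible arm of the large subunit that recruits elongation factors and on which several copies of the acidic proteins sit. Rplp1, an acidic stalk protein, had 10888 TPM in replicate 1 and 12220.2 TPM in replicate 2 and ranked 3 among all mouse genes in both. It alone made up 26.2% and 28.8% of the TPM of the core. Rplp0, which anchors the stalk to ribosomal RNA, had 1170.3 and 1191 TPM, and Rplp2, the acidic partner of Rplp1, only 214 and 261 TPM. Rplp1 and Rplp2, whose proteins pair in the stalk, were thus separated by more than either gene differed between libraries. The other genes among the 8 highest by mean were Rps2 with 2308 and 2854 TPM, Rpl13 with 2815 and 2329.8 TPM, Rps12 with 1936 and 1674 TPM, Rpl10a with 1521 and 1285 TPM, Rpl36 with 1589 and 1166 TPM, and Rps21 with 1405 and 1046 TPM. Together the 8 highest genes held 56.8% of the TPM of the core in replicate 1 and 56.9% in replicate 2.

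The bottom of the order held genes of both subunits. Rpl39, a small protein that lines the exit tunnel of the growing chain, had 4.40 TPM in replicate 1 and 3.67 TPM in replicate 2, from 63 and 58 counts. Rpl21 had 5.45 and 6.25 TPM, Rpl36a had 8.29 and 7.62 TPM, and Rps27a, which is made as a fusion to ubiquitin, had 8.09 and 8.87 TPM. Rpl24 (10.6 and 9.49 TPM), Rps25 (10.6 and 13.1 TPM), Rpl22 (12.4 and 12.4 TPM) and Rpl5 (10.1 and 16.9 TPM) completed the 8 lowest. For Rpl5, the near-identical locus Gm15500 held more counts than the gene in both libraries, as given below. Most neighbours in the order were not separated. Of 76 neighbouring pairs, the libraries of the higher gene both lay above those of the lower gene in 19, among them Rplp1 above Rps2 and Rpl21 above Rpl39.

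Fau, whose product is likewise made as a fusion, here of a ubiquitin-like protein to a 40S protein, had 737 TPM in replicate 1 and 779.9 TPM in replicate 2, above both libraries of Rps27a.

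The median over the 46 genes of the 60S subunit was 121 TPM in replicate 1 and 125 TPM in replicate 2, against 159 and 181 TPM over the 31 genes of the 40S subunit. The ratio of the medians was 0.761 and 0.688, with a mean of 0.725. Over the 12 core genes with whole counts in both libraries (8 of the 60S and 4 of the 40S subunit) the mean ratio was 0.0655. The summed TPM went the other way, 26517 and 26856 TPM for the 60S subunit against 15065 and 15553 TPM for the 40S subunit, a ratio of 1.76 and 1.73. Without Rplp1 the ratio of the sums was 1.04 in replicate 1 and 0.941 in replicate 2. The sums run over 46 genes against 31, so their ratio also depends on the number of genes and is not a level per gene. Within each subunit the quartiles overlapped widely, from 34.5 to 377 TPM for the 60S genes and from 67.3 to 908 TPM for the 40S genes in replicate 1.

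Among the structural groups, the median of the exit tunnel genes lay under the core median (132 TPM in replicate 1 and 143 TPM in replicate 2). The median of the messenger channel genes lay above it. Rpl26 of the first group and Rps3 of the second went the other way. The 9 genes listed for the exit tunnel had medians of 33.6 TPM in replicate 1 and 38.4 TPM in replicate 2, and 2 of them, Rpl26 (179.8 and 145 TPM) and Rpl19 (125 and 115 TPM), reached 100 TPM in both. The remainder ran from Rpl4 (89.3 and 127 TPM), whose loop narrows the tunnel, down to Rpl39. The 5 genes whose proteins lie along the messenger channel or its exit had medians of 941 and 1008 TPM. They were Rps2, Rpsa (1031 and 1008 TPM), Rps26 (941 and 1407 TPM), Rps28 (389 and 443 TPM) and Rps3 (81.1 and 94.7 TPM). In the 5S particle, which carries the 5S ribosomal RNA into the large subunit and binds the p53 regulator Mdm2 when it stays unassembled, Rpl11 had 165 and 160.4 TPM and its partner Rpl5 10.1 and 16.9 TPM. The level of Rpl5 depends on how reads were assigned, since Gm15500 held 75.6% of the joint counts in replicate 1 and 67.0% in replicate 2. The summed TPM of Rpl5 and Gm15500 was 43.0 and 52.5. The 9 genes listed here for human Diamond-Blackfan anaemia, an inherited failure of red cell production in which further ribosomal protein genes are also mutated, ranged from Rpl5 to Rps26 and had medians of 165 and 160.4 TPM. Rps19, the gene most often mutated in that disease, had 231 and 232 TPM.

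The level of a core gene followed the base composition of its coding sequence. Over the 77 genes, Spearman's rho between the share of G and C in the coding sequence and TPM was 0.80 in replicate 1 and 0.79 in replicate 2, as a description across genes of the same libraries. The 9 genes under 48% G and C had a median of 13.4 TPM in replicate 1 and 25.0 TPM in replicate 2. The 25 genes from 48% to 52% had medians of 62.0 and 63.9 TPM, the 24 genes from 52% to 56% medians of 153 and 164 TPM, and the 19 genes at 56% or more medians of 959.5 and 990.1 TPM. No gene in the lowest class passed 67.3 TPM in either library, and none in the highest class was under 179 TPM. The low end is shown here as the complete coding sequence of the lowest core gene, with G and C in capitals, from GENCODE M21 transcripts on GRCm38. Rpl39 lies at chrX:37082520-37085402 on the minus strand.
Rpl39: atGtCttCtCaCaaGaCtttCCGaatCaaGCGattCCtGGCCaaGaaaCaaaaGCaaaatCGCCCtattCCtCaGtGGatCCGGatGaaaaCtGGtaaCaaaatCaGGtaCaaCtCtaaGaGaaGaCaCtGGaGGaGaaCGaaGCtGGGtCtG
G and C make up 45.1% of these 153 bases, while the coding sequence of Rplp1, the highest core gene, holds 58.2% over 342 bases.

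**Figure D2:**
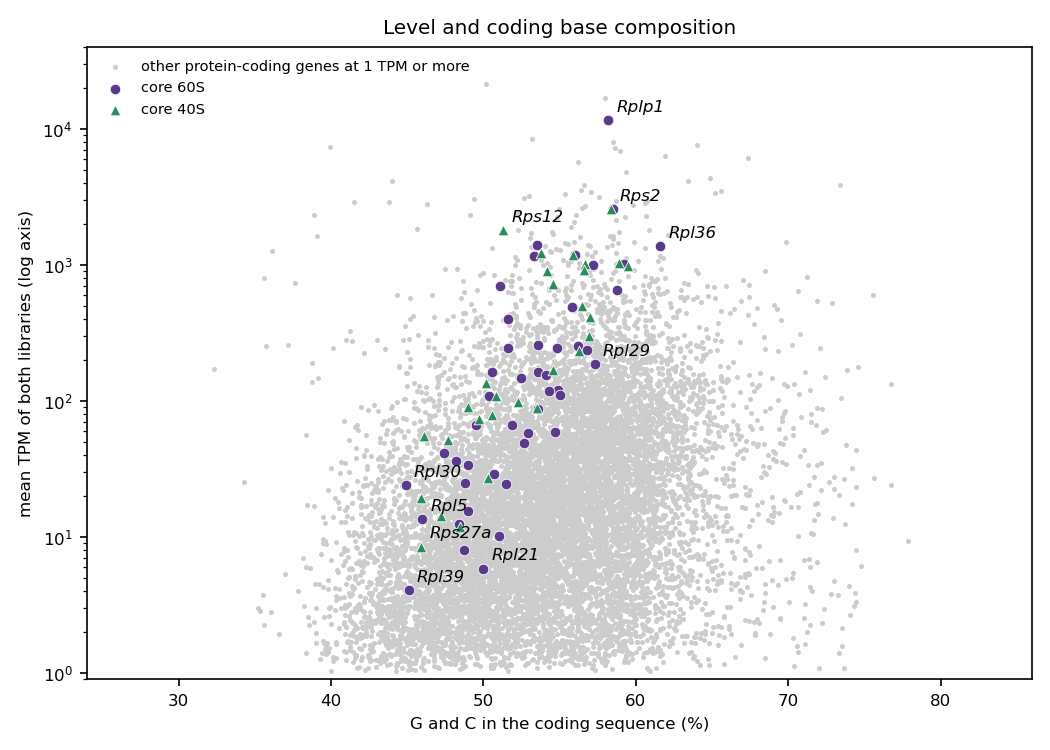
Mean TPM of both libraries on a log axis against the percentage of G and C in the coding sequence; circles are the core 60S genes, triangles the core 40S genes and grey points the other protein-coding genes that reached 1 TPM in each library. The core genes climb from Rpl39 at 45.1% to Rplp1 at 58.2%, within a wider cloud of other genes.

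The relation held in both subunits, with a rho of 0.79 and 0.77 over the 46 genes of the 60S subunit and of 0.82 and 0.82 over the 31 genes of the 40S subunit. It was also present over the 12 core genes whose expected counts were whole numbers in both libraries, which show no split of reads between loci (0.87 and 0.90). Rps12 stood out from it, with 51.3% G and C and 1936 and 1674 TPM, and so did Rpl29, with 57.3% and 179 and 193 TPM. The rho with transcript length was -0.26 and -0.25, with coding length 0.08 and 0.09, and with the number of near-identical loci -0.10 and -0.13. With the G and C share of the whole leading transcript in place of the coding sequence, the mean rho of both libraries was 0.57. The relation was not restricted to cytosolic ribosomes, since rho was 0.68 and 0.69 over 75 genes for mitochondrial ribosomal proteins and 0.33 and 0.28 over 11705 protein-coding genes at 1 TPM or more. The log2 ratio between the libraries had a rho of 0.07 with base composition over the core, but of 0.32 over the mitochondrial ribosomal proteins, and its median over protein-coding genes was 0.10 in the class at 56% or more and -0.10 in the class under 48%. These points share the libraries and the fragment lengths, and whether base composition acts on the gland's messages or on their recovery in the libraries was not tested.

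TPM divides by transcript length, so the length assigned to a gene moved its place in the order. Rps20, a 40S protein, had 8110 counts in replicate 1 and 14567 in replicate 2 and ranked 22 and 13 among the 77 core genes by counts. Its level was 67.3 and 112 TPM, which ranked 53 and 46, with 98.6% and 99.8% of its TPM on a transcript of 3706 nt in a gene whose coding sequence has 357 bases. Rps27 went the other way: its annotated transcript had 255 nt, leaving an effective length of 59.3 nt in replicate 1 and 68.8 nt in replicate 2, and so 177 and 332 counts made 85.6 and 130.0 TPM. Over the core, counts and TPM had a Spearman's rho of 0.936 and 0.925.

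Reads could not always be assigned to a single locus. Expected counts differed from a whole number by 0.01 or more for 65 of the 77 core genes, 3 of them by 0.01 and no more, and were whole in both libraries for 12. A search with each coding sequence (at least 90% identity over at least 50% of its length) found near-identical loci elsewhere in the genome for 73 core genes, with a median of 6 per gene and up to 56 for Rpl21. Outside the set these were 714 loci, 701 of them annotated as pseudogenes. Most were assigned no reads, as 518 had 0 counts in both libraries, and 41 had at least 50 counts in both. In sum they took 44438 expected counts in replicate 1 and 49506 in replicate 2, or 6.46% and 6.51% of the counts of the core. The sums hold all counts of each locus, also those that need not lie on the shared sequence, as at BC004004 below.

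For 5 core genes such loci held more counts than the gene itself in both libraries. Rpl12 had 3925 counts in replicate 1 and 4972 in replicate 2, against 8216 and 7462 at the transcribed processed pseudogene Gm10275, whose aligned sequence is identical. Rpl14 had 1066 and 1575 counts, against 4408 and 2785 at Rpl14-ps1. Rpl5 had 281 and 463 counts, against 871 and 938 at Gm15500, and Rpl27 had 1075 and 799 counts, against 1552 and 1318 at Rpl27-ps3. For Rpl21 (233 and 238 counts) the larger locus was BC004004, a protein-coding gene with 1796 and 2227 whole counts whose span holds an Rpl21-like pseudogene, so those counts need not lie on the shared sequence. With pseudogene loci alone the number was 4.

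**Figure D3:**
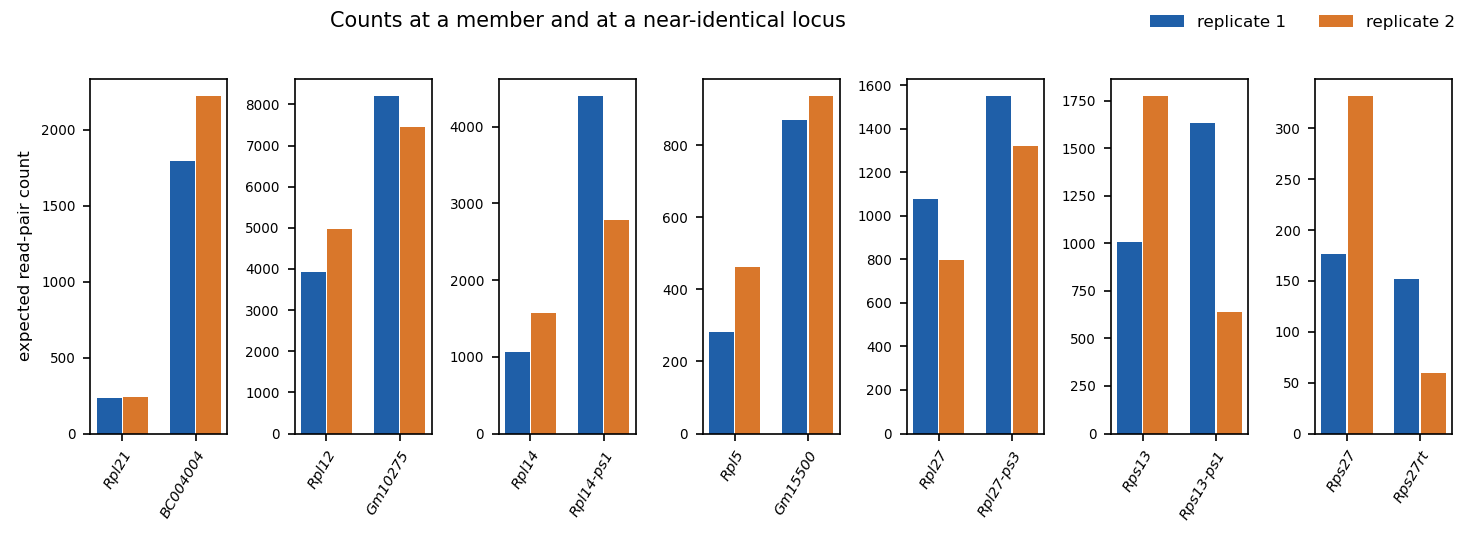
Expected read-pair counts at 7 ribosomal protein genes and, to the right in each panel, at a near-identical locus; blue bars are replicate 1 and orange bars replicate 2, and each panel has its own axis from 0. In the first 5 panels the second locus is higher in both libraries, while for Rps13 and Rps27 the split between the loci differs between the libraries. BC004004 is a gene whose span holds an Rpl21-like pseudogene, and its counts need not lie on the shared sequence.

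In some pairs the split of reads changed between the libraries while the sum moved less. Rps13 had 1004 counts in replicate 1 and 1776 in replicate 2, and Rps13-ps1 had 1631 and 640. The log2 ratio of replicate 1 over replicate 2 was -0.67 for Rps13 and 0.28 for the sum, while the copy was higher in replicate 1. Rps27 had 177 and 332 counts and its intronless copy Rps27rt, which the annotation lists as protein-coding, had 151 and 59.70. The log2 ratio was -0.75 for Rps27, 1.47 for Rps27rt and -0.11 for the sum. For Rpl14 the copy held 80.5% of the joint counts in replicate 1 and 63.9% in replicate 2, but the sum, at 0.48, moved no less than the gene, at -0.41. The coding sequences of Rps27 (chr3:90212522-90213651, minus strand) and Rps27rt (chr9:114982366-114982739, minus strand) did not differ at any of their 252 bases, so coding reads cannot separate them. That of Rps27l (chr9:66946086-66949516, plus strand) differed from Rps27 at 60 of the 252 bases (76.2% identity), and its counts were whole in both libraries. Both sequences are printed to show how far apart these paralogues are, with the bases of Rps27l that are unlike Rps27 in capitals.
Rps27 and Rps27rt: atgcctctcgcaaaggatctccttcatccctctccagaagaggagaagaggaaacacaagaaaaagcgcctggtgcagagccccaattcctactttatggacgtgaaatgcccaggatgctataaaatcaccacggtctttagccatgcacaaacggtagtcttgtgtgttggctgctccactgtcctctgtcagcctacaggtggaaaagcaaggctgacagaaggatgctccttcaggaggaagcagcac
Rps27l: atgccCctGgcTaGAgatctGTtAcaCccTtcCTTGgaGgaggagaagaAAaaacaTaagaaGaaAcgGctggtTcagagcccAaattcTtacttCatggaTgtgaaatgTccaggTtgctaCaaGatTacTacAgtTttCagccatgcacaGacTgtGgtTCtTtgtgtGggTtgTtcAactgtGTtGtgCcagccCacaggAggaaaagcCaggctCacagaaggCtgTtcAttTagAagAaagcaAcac

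By TPM the paralogues were minor beside their partners, with 1 exception. Rpl36al had 16.2 TPM in replicate 1 and 14.7 TPM in replicate 2, against 8.29 and 7.62 TPM for Rpl36a, a ratio of 1.96 and 1.93. Both genes had whole counts in both libraries, and the libraries of Rpl36al lay above those of Rpl36a. Rpl7l1, whose product takes part in large subunit assembly, reached 0.161 and 0.170 of Rpl7 (6.04 and 7.73 TPM against 37.4 and 45.4 TPM). Rps27l, a p53-induced form, reached 0.0731 and 0.0294 of Rps27 (6.26 and 3.82 TPM against 85.6 and 130.0 TPM). These ratios depend on length, since the effective length was 59.3 and 68.8 nt for Rps27 and 303 and 313 nt for the leading transcript of Rps27l. Rps27rt reached 0.292 and 0.0673 of Rps27 (25.0 and 8.75 TPM), but coding reads cannot separate the pair. Rpl22l1 had 39 counts in replicate 1 and 27 in replicate 2 but 0.650 and 1.37 TPM, since its effective length was 1712 and 532 nt, beside 12.4 and 12.4 TPM for Rpl22. The tissue-restricted paralogues were at or near 0, as Rpl3l, a form of striated muscle, had 5 counts in replicate 1 and 0 in replicate 2. Rpl10l and Rpl39l, known from testis, had 0 counts in both, which allows up to 3 counts, or 0.0630 CPM in replicate 1 and 0.0567 CPM in replicate 2 (counts scaled to a fixed total).

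Of the 6 genes with symbols of pseudogene form, Rps12-ps3 was the sole abundant one. It had 355 TPM in replicate 1 and 317 TPM in replicate 2 and is identical to Rps12 over the aligned coding sequence, so their reads cannot be told apart there. Rpl10-ps3 had 9.14 and 7.73 TPM and Rpl9-ps6 had 0.440 and 0.170 TPM. Rpl9-ps1, Rpl36a-ps1 and Rpl36-ps4 had 0 counts in both libraries. Rps19bp1 had 20.2 and 19.6 TPM from whole counts.

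The transcripts behind the gene levels were mostly the annotated coding ones, but several abundant genes were exceptions. The shares rest on a statistical split of reads between transcripts of the same gene and on transcript length. Whether introns were kept in the messages was not tested. Of the core TPM, 89.3% in replicate 1 and 88.7% in replicate 2 fell on transcripts annotated as protein-coding, and 8.53% and 9.34% on transcripts annotated as retaining an intron. By the TPM of both libraries together, the leading transcript was of the retained-intron type for 6 core genes, among them Rps2, Rps16, Rpl5 and Rpl12, although in replicate 2 a protein-coding transcript of Rpl12 led with 32.4%, against 27.1% on the retained-intron one. For Rps2, which sits at the messenger entry, that transcript (637 nt) held 75.0% and 80.2% of the TPM. By counts it had 26558.61 in replicate 1 and 38300.05 in replicate 2, against 14058.74 and 14053.22 on a protein-coding transcript of 998 nt. For Rps16 the leading retained-intron transcript held 74.6% and 70.7% of the TPM, and for Rpl5 76.5% and 78.5%. Rps6, the 40S protein phosphorylated by S6 kinase, had 89.3% and 88.4% on a processed transcript without an annotated coding sequence. The leading transcript of Rpl13a in the deposited tables is not in GENCODE M21.

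**Figure D4:**
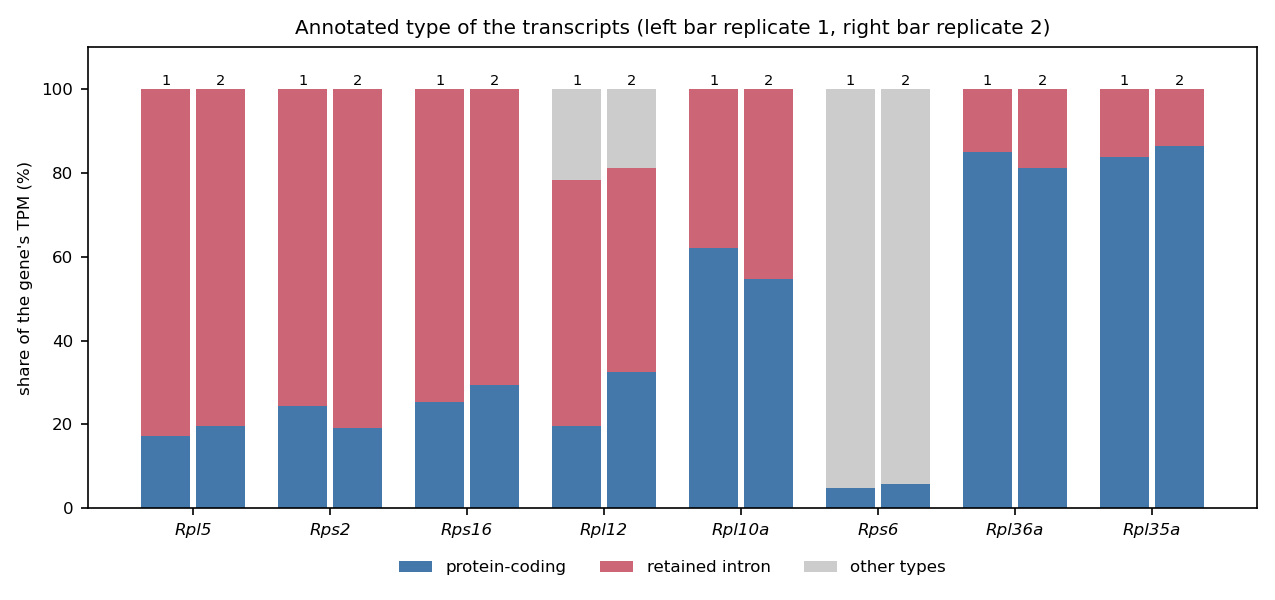
Share of each gene's TPM, in percent, on transcripts annotated as protein-coding, as retaining an intron and as other types, for 8 core genes; in each pair the left bar is replicate 1 and the right bar replicate 2. Retained-intron transcripts hold most of the TPM of Rpl5, Rps2 and Rps16 in both libraries, while Rps6 lies mostly on another type. The shares rest on a statistical split of reads between transcripts of the same gene.

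Of 57 core genes with several annotated transcripts, 51 had the same leading transcript in both libraries, and the median share of the leader was 83.4% and 83.3%. In 23 of the 57 the leader held under 80% in both libraries. The leader changed between the libraries for 6 genes, among them Rpl12, Rpl21, Rpl24, Rpl34 and Rps15a. For Rps15a, a 40S protein, counts and TPM went opposite ways, with 780 counts in replicate 1 and 657 in replicate 2 but 13.4 and 25.0 TPM. In replicate 2 a transcript of 250 nt held 67.8% of its TPM from 40.15 counts, against 29.3% from 7.40 counts in replicate 1. Rpl34 and Rpl21 likewise had counts and TPM that pointed in opposite directions by over 0.1 on the log2 scale. In the case of Rps19, a transcript with 740 counts in replicate 2 had 0 counts in replicate 1.

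The libraries were compared gene by gene with a two-sided exact binomial test on rounded expected counts, adjusted over 15824 genes by the Benjamini-Hochberg method. With 1 library on each side the test compares these libraries and not conditions, and it reads counting error only, so at this depth small differences pass it. Of the set, 85 genes had enough counts to be tested. The test called 30 of them higher in replicate 1, against 29.6% of all genes tested, and 26 higher in replicate 2, against 28.6%. The shares of the set, 35.3% and 30.6%, were near these backgrounds. A difference of at least 2-fold was called for 1 gene of the set, Rps27rt, higher in replicate 1, where the background was 4.41%. It was called for 0 of the set higher in replicate 2, where the background was 2.55%. The log2 ratio of Rps27rt was 1.47 (95% interval 1.04 to 1.94). Its coding sequence is identical to that of Rps27, and the summed counts of the pair had a log2 ratio of -0.11. The interval and the call do not cover how shared reads were split between these loci. When a variation of 0.2 between animals was assumed, the edgeR exact test called 0 of the 85 genes in either direction. Its calls were rare over all 15824 genes too, 0.847% toward replicate 1 and 0.683% toward replicate 2. At such low shares, 0 of 85 does not set these genes apart. In the same test 1 of the 85 had an unadjusted p under 0.05. The share of all genes under that limit is not given here, so this number does not set these genes apart either.

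The median log2 ratio of replicate 1 over replicate 2 was 0.03 over the tested genes of the set and 0.01 over the core, beside 0.00 over all genes tested. The quartiles of the core were -0.17 and 0.14, beside -0.24 and 0.28 for all genes tested. Within 1.5-fold were 73 of the 77 core genes (94.8%), compared with 80.3% of all genes tested and with 86.9% of the 13266 genes that, like all core genes, had at least 100 summed counts. Counting error widens ratios at low counts, and a floor of 100 does not match these genes to the core in depth. The shares therefore do not set the core apart. The 60S genes had a median of 0.07 and the 40S genes of -0.02. Scaling to the ERCC spike-ins shifted all ratios by -0.43, which put the median of the set at -0.40 and left 3 genes called higher in replicate 1 and 70 called higher in replicate 2. The same scaling called 7.01% and 67.5% of all genes tested.

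**Figure D5:**
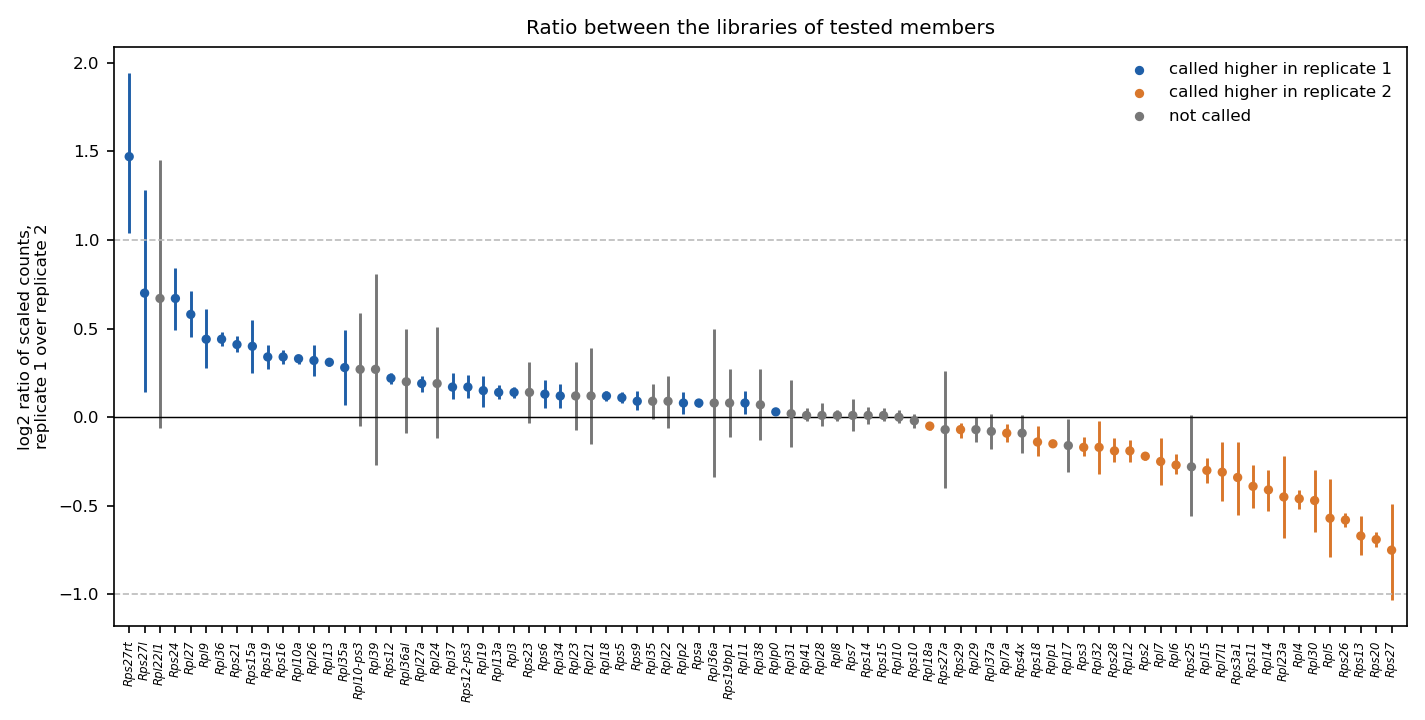
Log2 ratio of scaled counts, replicate 1 over replicate 2, of tested genes in descending order; bars are exact 95% intervals that cover counting error only, and colours show the call of the exact binomial test. Rps27rt is the sole gene past the dashed line of 2-fold, and the others lie between 0.70 for Rps27l and -0.75 for Rps27. Coding reads cannot separate Rps27rt from Rps27, and the bars do not cover how such reads were split.

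The genes farthest from the median were few. Rps24, a 40S protein, had 637 counts in replicate 1, against 446 in replicate 2, and its log2 ratio was 0.67 (95% interval 0.49 to 0.84), and Rpl27 had a ratio of 0.58 (0.45 to 0.71). Rps27l, with 66 and 45 counts, stood at 0.70 (0.14 to 1.28), and Rpl22l1 at 0.67 (-0.06 to 1.45), which did not pass the test. On the other side Rps20 was at -0.69 (-0.73 to -0.65), Rps13 at -0.67 (-0.78 to -0.56), Rps26 at -0.58 (-0.62 to -0.54) and Rpl5 at -0.57 (-0.79 to -0.35). Of these, Rps13, Rpl5 and Rpl27 share reads with a near-identical locus, as given above, and so do Rps27 and Rps27rt with each other. Rps20, Rps24 and Rps26 had under 2% of the joint counts at such loci.

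Among the most abundant genes both directions occurred. Rpl36 (1589 TPM in replicate 1 and 1166 TPM in replicate 2) had a ratio of 0.44, Rps21 of 0.41 and Rpl13 of 0.31, while Rps2 was at -0.22 and Rplp1 at -0.15, and all of them passed the exact binomial test. The counts in the structural groups stand beside the same backgrounds, 29.6% of all genes tested called higher in replicate 1 and 28.6% in replicate 2, and are small. Of the 5 messenger channel genes, Rpsa was called higher in replicate 1 and 4 were called higher in replicate 2. Of the 9 exit tunnel genes, 2 were called higher in replicate 1 and 2 in replicate 2, and of the 9 anaemia genes 4 and 2.

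The other genes of the translation apparatus were counted beside these, with the same backgrounds of 29.6% and 28.6%. Of 26 genes listed with the initiation factors, including the eIF4E-binding proteins Eif4ebp1 and Eif4ebp2, 5 were called higher in replicate 1 and 19 higher in replicate 2. Their median log2 ratio was -0.19. The lowest were Eif4a1, the helicase that unwinds leaders, at -0.60 (84.0 TPM in replicate 1, 136 TPM in replicate 2), Eif2s3x at -0.51 and Eif3b at -0.48, and the highest were Eif3m at 0.40, Eif3j1 at 0.38 and Eif1 at 0.31. Of 29 ribosome biogenesis factors, 1 was called higher in replicate 1 and 14 higher in replicate 2, also with a median of -0.19, and they were low in level (medians of 17.0 and 18.8 TPM). Nmd3, the export adaptor of the large subunit, had the lowest ratio, -0.98, followed by the polymerase I factor Rrn3 at -0.79 and nucleolin (Ncl) at -0.63, while Rpf2 at 0.50 and Ebna1bp2 at 0.24 were not called and Nob1 was called at 0.14. Of 18 other messages known for oligopyrimidine tracts, 5 were called higher in replicate 1 and 9 higher in replicate 2. In that list Eef1b2 at 0.71, Tpt1 at 0.57 and Vim at 0.42 were highest, and Eif4b at -0.41, Nap1l1 at -0.33 and Npm1 at -0.29 (not called) were lowest. Its most abundant members were Tpt1 (3318 TPM in replicate 1 and 2285 TPM in replicate 2), the elongation factor Eef2 (1175 and 1296 TPM) and the 40S-bound scaffold Rack1 (1370.0 and 1380.3 TPM). Of 10 genes listed with the regulators of ribosomal protein genes or of their translation, 1 was called higher in replicate 1 and 6 higher in replicate 2. The 1 was Mdm2 at 0.22, the p53 ligase that the unassembled 5S particle binds. Among the 6 were Mtor at -0.34 and Larp1 at -0.16, and the median of the list was -0.13. Whether these lists differ from the ribosomal proteins was not tested.

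The libraries also differed in markers of the cells they held, and fewer cells of a type and less RNA per cell cannot be told apart in whole tissue. All 7 cortex markers were called higher in replicate 2 (summed 22690.3 TPM in replicate 1 and 30675 TPM in replicate 2), and all 6 adipose markers higher in replicate 1 (14603 and 6437 TPM). Stomach markers summed to 45.4 TPM in replicate 1 and 2.10 TPM in replicate 2 (4 of 4 called higher in replicate 1), and liver markers to 6.19 and 35.2 TPM (5 of 5 called higher in replicate 2, with Ttr at 0 counts in replicate 1). Of the medulla markers 3 were called higher in replicate 1 and 1 in replicate 2 (3889.9 and 3586 TPM), the 5 red cell markers were called higher in replicate 2 (3760.0 and 4908 TPM), and 4 of 5 macrophage markers higher in replicate 1 (959.8 and 878 TPM). Skeletal muscle markers summed to 5.54 and 1.64 TPM with Myh4 at 0 in both, and germ cell markers to 0.0600 and 0.240 TPM with Prm1, Tnp1 and Dazl at 0 in both. Their part in the ratios of the ribosomal protein genes was not tested.

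Promoter windows of 300 bases (250 before to 50 from the annotated start, RefSeq, GRCm38.p6) were available for 66 of the 92 genes, 57 of them core genes with 67 windows. A pyrimidine run, here a C within 5 bases of the annotated start followed by at least 4 further C or T, was present in 43.3% of the core windows, compared with 18.7% of 19931 windows of protein-coding genes. The result depends on the annotated start, as Rpl35a, Rps21 and Rps24 had windows with a run and windows without. A window without a run therefore does not show that the message lacks the tract. Of shorter motifs searched on both strands, CCGGAAG, the core of sites for ETS factors, was in 25 of the 67 core windows (37.3%) and in 2383 of all windows. AAGATGGC, a core of YY1 sites, was in 10.4% of core windows and 3.13% of all, GGGCGG, the core of SP1 sites, in 61.2% and 48.1%, and TATAAA, the TATA box, in 8.96% of core windows and in 2384 of all windows. A match is a description of the window and not a binding site. The genes with a run had medians of 147 TPM in replicate 1 and 164 TPM in replicate 2 (27 genes), compared with 115 and 125 TPM in the genes without one (30 genes), and their median log2 ratios were 0.09 and 0.05. The windows are shown for 4 genes at which the run was long and for 2 abundant genes with no run by this rule. They span 15 bases before and 15 from the annotated start, with the run in capitals as far as it lies inside.
Rpl27a (chr7:109519180-109519209, plus strand): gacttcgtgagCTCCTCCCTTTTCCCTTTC
Rpl15 (chr14:18270972-18271001, minus strand): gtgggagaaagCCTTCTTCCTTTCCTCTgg
Rpl35 (chr2:39005117-39005146, minus strand): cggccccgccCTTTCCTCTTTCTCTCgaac
Rps10 (chr17:27635230-27635259, minus strand): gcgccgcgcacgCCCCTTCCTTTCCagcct
Rps15 (chr10:80292416-80292445, plus strand): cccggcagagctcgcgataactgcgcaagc
Rplp0 (chr5:115559452-115559481, plus strand): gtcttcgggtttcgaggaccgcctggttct

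Introns of these genes also carry small nucleolar RNAs, which guide the modification of ribosomal RNA. Of the 77 core genes, 30 contained at least 1 annotated snoRNA on the same strand, 58 snoRNA genes in all. Host genes had medians of 115 TPM in replicate 1 and 135 TPM in replicate 2, compared with 159 and 145 TPM for the other core genes.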

How the data were processed

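Polyadenylated RNA of the mouse adrenal gland was measured in 2 libraries of 1 group. The readme text deposited beside the tables gives the build mm10 and annotation M4. The alignment and quantification tools, not given in the sources used here, could not be checked. Per the file headers, the authors' gene tables hold expected counts and posterior mean counts (estimated read pairs, fractional where reads were split between loci), TPM and posterior mean TPM, FPKM, credibility intervals and effective lengths. The deposited transcript tables hold the percent of a gene's TPM on each transcript. The total expected count was 48059863 in replicate 1 and 53294872 in replicate 2, of which ERCC spike-ins were 0.654% and 0.485%.

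Identifiers without version were matched to GENCODE M21 (42462 of 43346). Rounded expected counts were scaled with TMM factors (edgeR 4.0.16, R 4.3.3) and compared by a two-sided exact binomial test (scipy 1.17.1, Python 3.11.15) for the 15824 genes whose counts summed to 20 or more, with Benjamini-Hochberg adjustment over all of them and a threshold of 0.05. Ratios have a prior count of 0.5. Intervals are Clopper-Pearson at 95% and cover counting error only. Near-identical loci were found with blastn 2.17.0 in GENCODE M21 transcripts. The script of the test was tested on simulated data. Named genes were the 8 highest and 8 lowest core genes by mean TPM, the 5 highest and 5 lowest ratios, the paralogues, the genes outside the core, the gene with the widest difference between libraries, core genes whose leading transcript held under 80% in both, the structural and anaemia groups, and 3 highest and 3 lowest ratios of each translation list with any at 1000 TPM in both libraries. The other genes named (the near-identical loci, Rpl14, Rpl27a, Rps6, Rps15, Mtor, Larp1 and Mdm2 among them) were chosen after their values were seen. Members and lists were chosen with earlier results of these data known. Values of a few genes and 1 sequence are not reported here, and the plots leave those genes out. Deposited mm9 contigs and splice junctions were not used here.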

Additional observations from a re-analysis of the deposited data

How the results depend on the processing

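No paired analysis was possible because there was only 1 group. With ERCC scaling, 3 genes of the set were called higher in replicate 1 in place of 30 and 70 higher in replicate 2 in place of 26, and their median log2 ratio was -0.40 in place of 0.03. An edgeR exact test with an assumed variation of 0.2 called 0 and 0 of the set, and 242 genes in all. The median ratio was -0.03 on log2(TPM + 1) and -0.03 on log2(TPM + 0.1). Rps21, Rpl13 and Rps15a changed sign with ERCC scaling (-0.02, -0.13 and -0.03). Over 18 named genes and up to 8 settings, 121 ratios kept direction and side of the threshold, 19 lost the call and 3 reversed.

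The mean share of TPM, 4.28%, was 1.45% of expected counts, 4.62% with protein-coding genes as denominator and 4.38% with pseudogenes added. Over the 12 core genes with whole counts, the ratio of 60S to 40S medians was 0.0655 in place of 0.725, the coefficient of variation 144% in place of 255% and highest over lowest 302 in place of 2902 (fewer genes enter these). With a difference of exactly 0.01 counted as whole, 15 core genes were whole and 62 fractional, and these values were 0.0784, 125% and 302. With the composition of the leading transcript, rho was 0.57 in place of 0.80. The alternatives for base composition, near-identical loci and the 0.01 limit were chosen after seeing the data. Leaving out either replicate gave shares of 4.25% to 4.32%, ratios of medians of 0.688 to 0.761, variation of 245% to 264%, highest over lowest of 2475 to 3329.8, rho of 0.79 to 0.80, 6 to 7 leading transcripts not annotated as coding, and 5 to 6 genes with more counts at near-identical loci. The cause was not tested in any of these. With 2 libraries the spread between animals cannot be estimated, and reads shared between loci limit the values of single genes.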
